A study of Mus musculus with 43 samples.

Results

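The genes described here encode the proteins of the mouse egg coat and 3 factors that the oocyte secretes: Zp1, Zp2, Zp3, Gdf9, Bmp15 and Oosp1. All probe sets that the array's annotation assigns to these 6 genes alone were taken, 8 of 45007 probe sets, and the array represented 18184 genes in all. Zp1, Zp2, Zp3, Gdf9 and Oosp1 had 1 probe set each, and Bmp15 had 3 (1420006_at, 1420005_s_at and 1450210_at). Their levels were followed in whole gonads of 43 mice, 1 mouse per Affymetrix MOE430 v.2 array, in 15 groups. Ovaries at embryonic day 13 (E13) were Foxl2-/-, against controls that are Foxl2+/- by their labels and wild-type littermates by the methods of the study. Ovaries at E15 were Wnt4 ko, against Wnt4+/- controls. Ovaries at E16 were Foxl2-/- or Foxl2+/-, against wild type. On the day of birth (P0), ovaries were Wnt4-/- Foxl2-/-, Wnt4-/- (with Foxl2+/-), KitWvWv Foxl2-/-, KitWvWv (with Foxl2+/-) or Foxl2-/-, against wild type. Testes were taken at E13 and P0, and by the methods those of P0 were Wnt4-null, with partly defective differentiation. Every group held 3 arrays, except the E15 groups with 2 each, and this number limits the precision. The strain mix of the E15 mice differed from that of the others by the methods, the Wv allele of Kit is a hypomorph and not a deletion, and all the Wnt4 and Kit single mutants of P0 lacked 1 copy of Foxl2, which the wild-type ovaries did not.

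The zona pellucida is the extracellular coat that a growing oocyte builds around itself. In the mouse it is assembled from the glycoproteins ZP1, ZP2 and ZP3, of which ZP2 and ZP3 form the filaments and ZP1 cross-links them. GDF9 and BMP15 are members of the transforming growth factor beta superfamily that the oocyte releases as processed proproteins and that act on granulosa cells through type I and type II receptors and SMAD proteins. OOSP1 is an oocyte-secreted protein of less well known role. FIGLA, a helix-loop-helix factor of oocytes, is known to be needed for transcription of the 3 zona genes, and NOBOX, an oocyte homeobox factor, for that of Gdf9 and Bmp15. FOXL2 acts in the supporting cells of the ovary, and WNT4 is a protein that its somatic cells secrete. KIT, the receptor of stem cell factor, acts in the germ cells, whose survival depends on it.

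Sequence just upstream of the start site is shown for the members found in the RefSeq promoter table (build GRCm38.p6), 3 of 6 genes, because helix-loop-helix factors of the FIGLA kind bind the E-box CANNTG. The 250 bases before each start are printed 5′ to 3′ on the strand of the gene, with every E-box in capitals.
Zp3, chr5:135979855-135980104, plus strand: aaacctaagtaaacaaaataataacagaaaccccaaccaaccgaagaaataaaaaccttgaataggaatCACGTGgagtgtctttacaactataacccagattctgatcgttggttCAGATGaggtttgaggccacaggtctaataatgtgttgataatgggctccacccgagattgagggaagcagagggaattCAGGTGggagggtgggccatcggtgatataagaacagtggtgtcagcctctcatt
Bmp15, chrX:6320725-6320974, minus strand: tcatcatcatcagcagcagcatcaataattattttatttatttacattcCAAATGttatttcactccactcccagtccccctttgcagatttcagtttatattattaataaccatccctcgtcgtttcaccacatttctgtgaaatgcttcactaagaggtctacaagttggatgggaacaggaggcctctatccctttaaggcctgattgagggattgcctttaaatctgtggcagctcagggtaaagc
Oosp1, chr19:11691052-11691301, minus strand: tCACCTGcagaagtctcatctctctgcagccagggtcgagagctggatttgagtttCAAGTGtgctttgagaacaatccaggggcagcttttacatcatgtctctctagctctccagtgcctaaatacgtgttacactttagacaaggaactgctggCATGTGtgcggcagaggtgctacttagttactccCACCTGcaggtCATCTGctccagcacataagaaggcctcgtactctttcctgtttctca
The window of Zp3 held 3 E-boxes, that of Oosp1 held 5 and that of Bmp15 held 1. CANNTG matches itself on both strands, and 66.2% of 32851 mouse promoter windows of this length held at least 1, so its presence does not set these genes apart. The form CAGGTG, or CACCTG on the other strand, is one of the sequences that CANNTG covers. It lay at position -55 from the start of Zp3 and at -249 and -59 from that of Oosp1, and 17.2% of all windows held it. Bmp15 had no CAGGTG or CACCTG in its window, and had the homeobox core TAATTA, which 4.84% of windows held and the other 2 windows did not.

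Signals below are the deposited intensities divided by their common mean over an array, so that 1 is an average probe set, and changes are log2 differences of signal plus 0.01 with the standard error (SE) of a fit by limma over all 43 arrays. The words rose, fell and called are kept for a p under 0.05 after adjustment over all 45007 probe sets. The library labels were checked on the targeted genes. Foxl2 read 0.606 to 2.77 in the Foxl2-/- ovaries of E13, E16 and P0, against 5.31 to 16.8 in their controls, and 0.682 to 0.826 in Wnt4-/- Foxl2-/- and 3.56 to 7.64 in KitWvWv Foxl2-/- ovaries, against 5.13 to 5.90 in Wnt4-/- and 19.5 to 32.6 in KitWvWv ovaries. The Foxl2 readings of KitWvWv Foxl2-/- ovaries were thus below those of KitWvWv ovaries. They were above those of the other Foxl2-/- ovaries, and overlapped those of Wnt4-/- ovaries and of the controls. Wnt4 read 0.200 to 0.306 in Wnt4-/- ovaries of P0, against 0.581 to 0.745 in wild type. No Wnt4 reading is given for the ovaries of E15. One array stood apart for a member: array 3 of the KitWvWv ovaries read 19.2 for Zp3, the highest Zp3 value of all 43 arrays, and each result that rests on it is given with and without it.

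The zona genes and Gdf9 came on between E16 and birth. In wild-type ovaries of P0, Zp2 read 1.77, 6.64 and 3.96, against 0.133, 0.120 and 0.131 at E16. It rose by 4.71 ± 0.58 (log2, SE, n = 3 and 3; adjusted p = 2.94e-07). Zp3 read 0.983, 4.40 and 2.89 at P0, against 0.0363, 0.0213 and 0.0320 at E16, a rise of 5.89 ± 1.16 (adjusted p = 0.000311). No P0 array overlapped an E16 array for either gene. The E16 readings of Zp3 lay within the range of the testes. Those of Zp1 did so in arrays 1 and 2, and array 3 (0.0378) was just above the highest testis reading (0.0370). The size of the rise of Zp3 and Zp1 thus depends on E16 readings much like those of testes. These were not the lowest readings of the probe sets, which went down to 6.30e-06 for Zp3 at E15 and 3.79e-05 for Zp1 in a testis of P0. The SE of Zp3 carries the KitWvWv array named above, and without that array the same rise had an SE of 0.57 and an adjusted p of 5.25e-09. Zp1, the cross-linker, read 0.215, 0.952 and 0.595 at P0, against 0.0168, 0.0147 and 0.0378 at E16. It rose by 4.01 ± 0.55 (adjusted p = 2.31e-06). Gdf9 read 2.60, 6.70 and 5.04 at P0, against 0.252, 0.317 and 0.316 at E16, and rose by 3.88 ± 0.33 (adjusted p = 5.03e-10). Its E16 readings too lay in or just above the range of the testes (0.130 to 0.316).

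**Figure D1:**
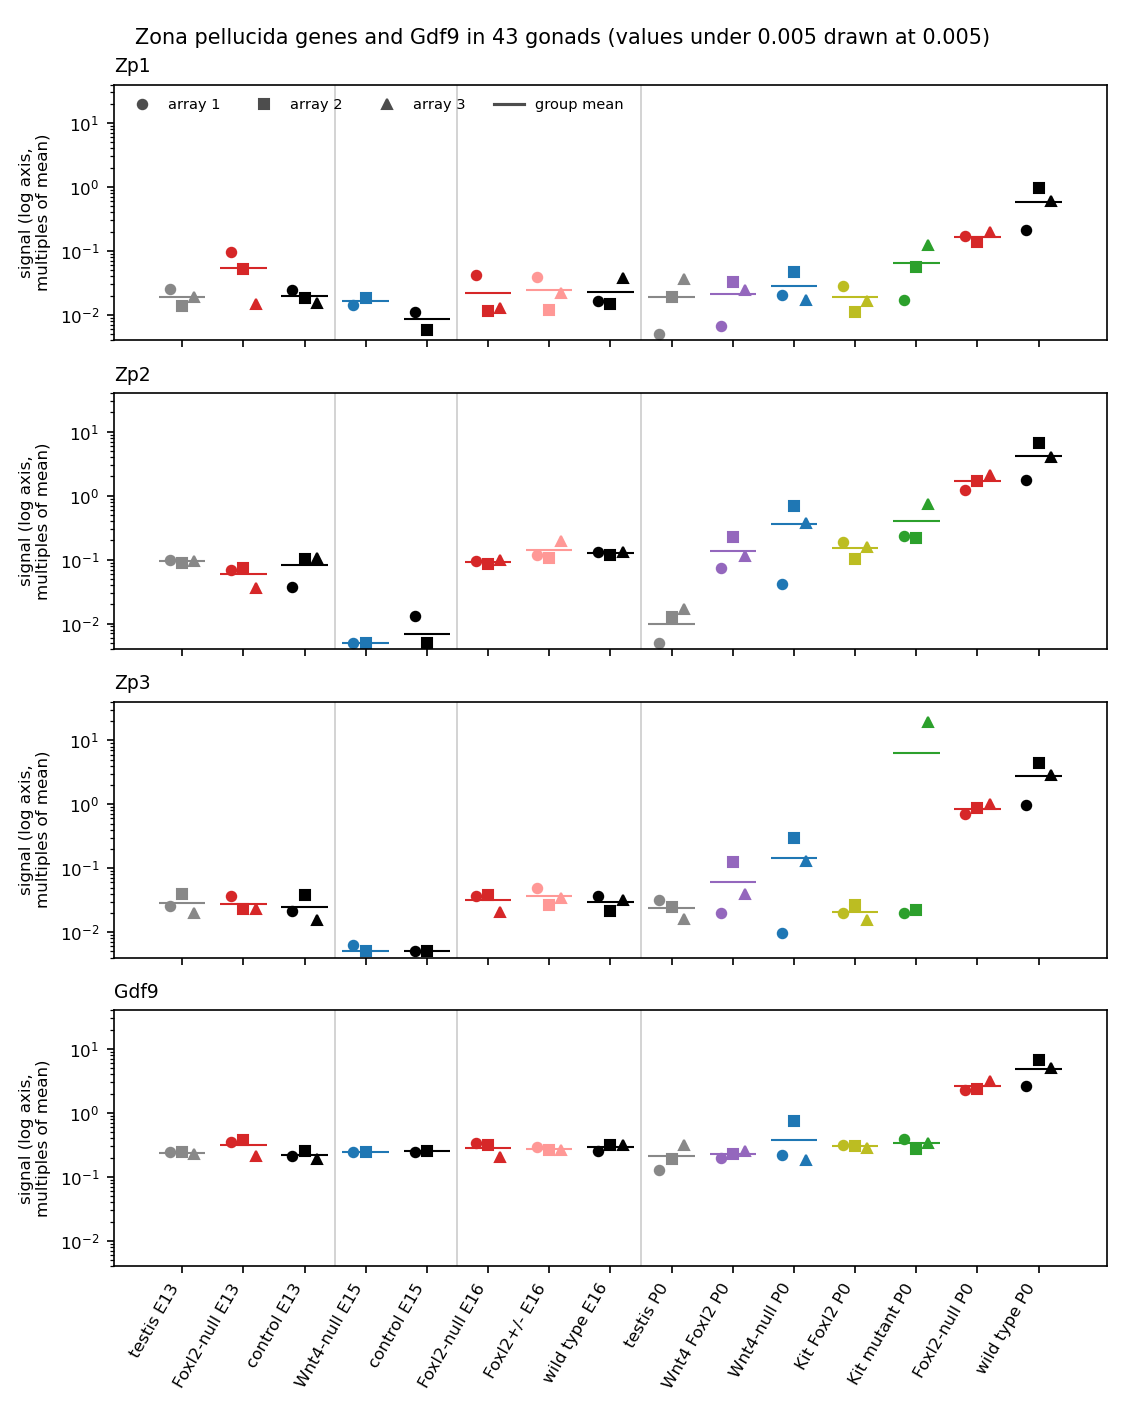
Signal of Zp1, Zp2, Zp3 and Gdf9 in 43 gonads on a log axis, in multiples of the array mean, with 1 point per array (shape gives the array number) and a line at the group mean, by group from E13 to P0. Foxl2-null and wild-type ovaries of P0 stand above the arrays before birth, and array 3 of the Kit mutant ovaries stands at 19.2 for Zp3 while its other 2 arrays are at 0.0201 and 0.0220.

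Before birth none of the 4 genes was called in any comparison. Over the 15 ovary arrays of E13 and E16 together, Zp2 lay between 0.0359 and 0.194, Zp3 between 0.0155 and 0.0492, Zp1 between 0.0113 and 0.0957 and Gdf9 between 0.192 and 0.373. In the 6 testis arrays, which hold no oocytes, Zp3 read 0.0158 to 0.0395 and Gdf9 0.130 to 0.316, so the prenatal ovary and the testis gave overlapping readings for both. Between wild-type ovaries of E16 and control ovaries of E13, 0 of 8 probe sets were called, where 7.51% of all probe sets were. In the 4 ovaries of E15, Zp3 was at or under 0.00623 and Zp2 at or under 0.0132, below every ovary of E13 and E16, while Gdf9 read 0.245 to 0.253, inside their range. Stage and strain mix cannot be told apart for the E15 arrays.

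For Bmp15 and Oosp1 the change at birth was not called or rested on single arrays and settings. The brightest Bmp15 probe set, 1420006_at, read 0.0868, 0.347 and 0.177 at P0, against 0.0966, 0.0667 and 0.129 at E16, and the groups overlapped (0.83 ± 0.52, adjusted p = 0.221). Probe set 1420005_s_at, whose suffix marks probes that can match more than 1 transcript, overlapped too (0.47 ± 0.44, adjusted p = 0.422). After quantile normalization 1420006_at was called as well (1.3, adjusted p = 0.0468). Without it only 1450210_at passed the test, with 0.0361, 0.0967 and 0.0341 at P0, against 0.00301, 0.0194 and 0.0241 at E16 (1.35 ± 0.48, adjusted p = 0.0313). That call was lost without wild-type array 1 of E16 (0.92, adjusted p = 0.182) and without wild-type array 2 of P0 (0.94, adjusted p = 0.198), and the P0 readings overlapped those of the P0 testes (0.0218, 0.0598 and 0.0209). Oosp1 read 0.0643, 0.167 and 0.152 at P0, against 0.0556, 0.0383 and 0.0459 at E16. Every P0 array was above every E16 array, but the difference of 1.20 ± 0.54 missed the threshold (adjusted p = 0.0888). It passed without wild-type array 1 of P0 (1.59, adjusted p = 0.0435). In all, 5 of 8 probe sets rose and none fell at birth, where 7.59% of all probe sets rose, and 6 of 8 did not overlap between the stages, against 47.8% of all probe sets. The median change was 2.61 for the members and -0.36 for all probe sets.

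**Figure D2:**
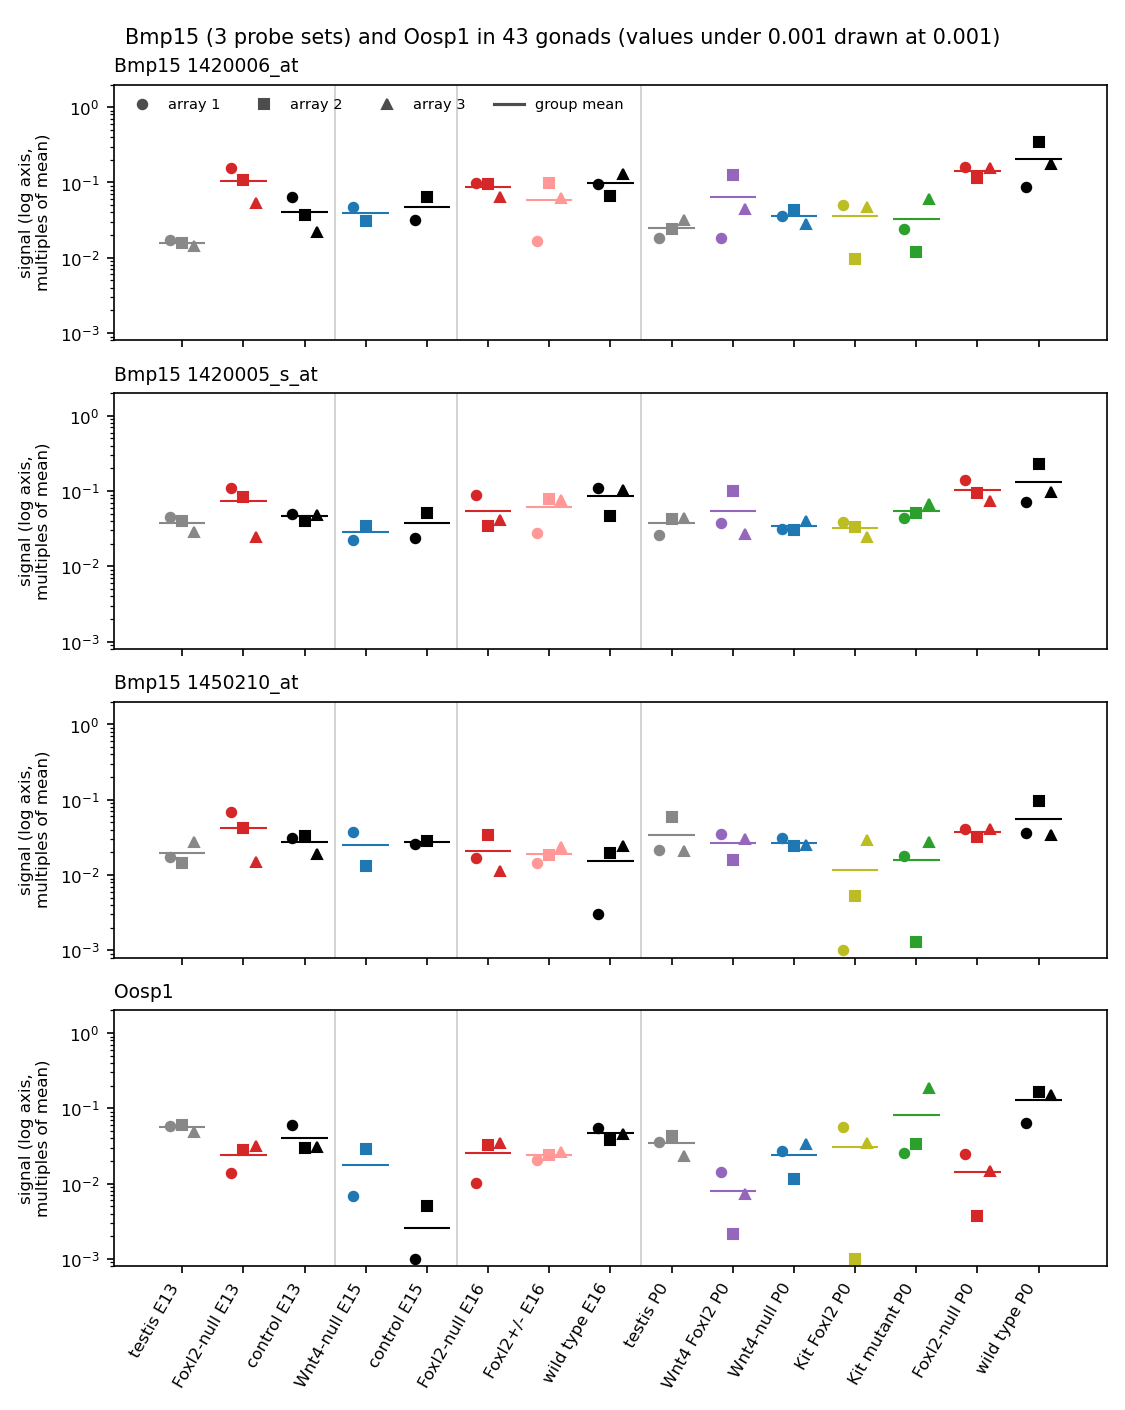
Signal of the 3 Bmp15 probe sets and of Oosp1 in 43 gonads on a log axis, in multiples of the array mean, with 1 point per array and a line at the group mean. Bmp15 readings of P0 overlap those before birth, but wild-type array 2 of P0 is above all prenatal arrays at each probe set. Oosp1 is highest in wild-type ovaries of P0 and in array 3 of the Kit mutant ovaries, and lower in the Foxl2-null ovaries of P0.

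In whole ovaries, more germ cells and more RNA of a gene in each germ cell cannot be told apart. The mean log2 level of 11 germ-cell markers, among them Ddx4 and Dazl, was 1.49 to 1.63 in the wild-type ovaries of P0, against 0.41 to 1.26 at E16. The difference of 0.68 had an exact two-sided permutation p of 0.1, the smallest that 3 against 3 arrays allow. Taken relative to this index, Zp2 was higher by 4.03, Zp3 by 5.21, Zp1 by 3.32 and Gdf9 by 3.19 at P0, each again with the smallest possible p of 0.1. Of the 11 markers, 3 rose at birth and none fell, where 10.2% of all genes rose. The 18 genes of meiotic prophase went the other way, with 10 that fell and none that rose, where 20.7% of all genes fell. Among 9 regulators of oocyte transcription, 6 rose, including Nobox (4.13 ± 0.66, adjusted p = 2.03e-05), Sohlh1 (3.10 ± 0.48, adjusted p = 1.22e-05) and Pou5f1 (2.49 ± 0.48, adjusted p = 0.000255). Figla, the regulator of the zona genes, read 4.78, 8.89 and 6.57 at P0, against 0.450, 1.99 and 1.72 at E16, and rose by 2.49 ± 0.72 (adjusted p = 0.00893).

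**Figure D3:**
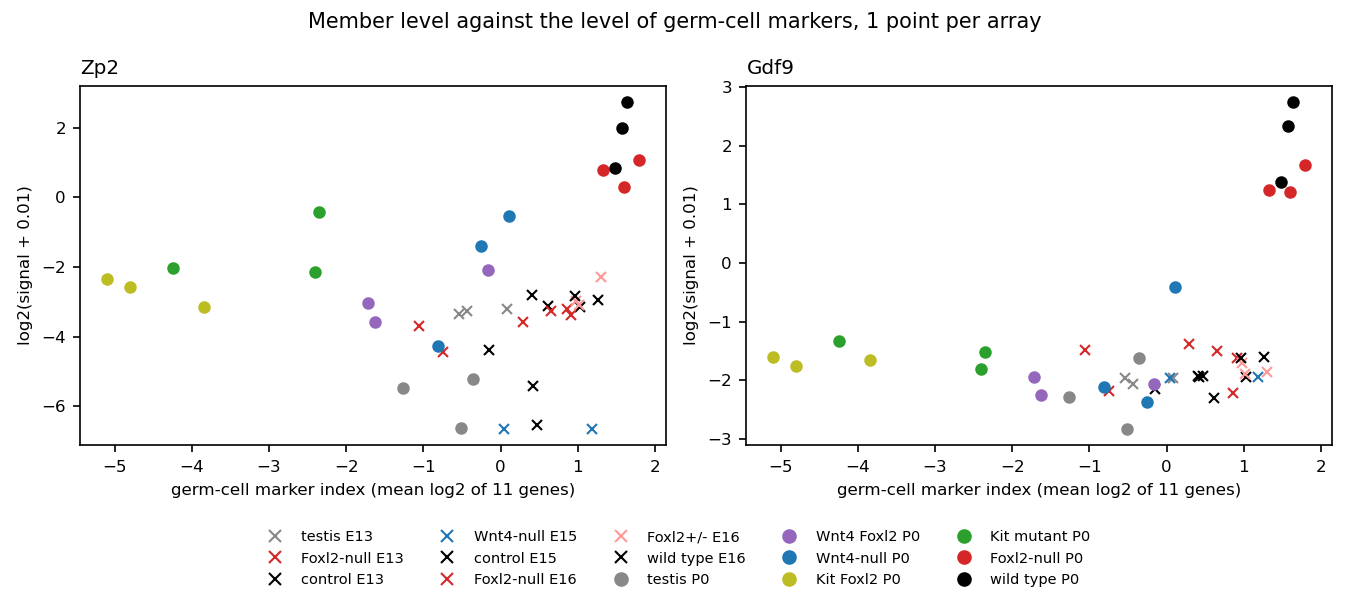
Log2 of signal plus 0.01 for Zp2 and for Gdf9 against the mean log2 level of 11 germ-cell markers, 1 point per array, with circles for P0 and crosses for earlier stages. Ovaries of E16 with an index near 1 have low Zp2 and Gdf9, the Foxl2-null and wild-type ovaries of P0 are at the upper right, and Kit mutant arrays lie at the far left.

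Of 6 other egg-surface genes measured, 3 rose at birth and none fell, where 10.2% of all genes rose and 20.7% fell, the shares against which the counts of the next lists stand as well. Those that rose were Astl, the protease that cleaves ZP2 after fertilisation, by 3.45 ± 0.66 (adjusted p = 0.000222), Izumo1r, the sperm receptor on the egg membrane, by 1.90 ± 0.38 (adjusted p = 0.000329), and Cd9, a tetraspanin needed for gamete fusion, by 1.58 ± 0.25 (adjusted p = 1.90e-05). Oosp2, a relative of Oosp1, gave 1.45 ± 0.62 (adjusted p = 0.0741) and was not called. Among 4 proprotein convertases of the kind that cut factors such as GDF9 and BMP15, Pcsk6 rose by 1.53 ± 0.28 (adjusted p = 0.000119), Furin rose by 0.45 ± 0.13 (adjusted p = 0.00937) and Pcsk7 fell by 0.59 ± 0.21 (adjusted p = 0.0315). Of 14 receptors and SMADs, Smad3, which carries the GDF9 signal, rose by 0.87 ± 0.12 (adjusted p = 3.64e-06), Smad2 rose by 0.61 ± 0.22 (adjusted p = 0.0320), and Smad5 and Bmpr1a fell. None of 16 measured granulosa-cell genes known to respond to GDF9 or BMP15 rose, and 3 fell, namely Kitl, Fst and Has2. Of 6 other growth factors of the superfamily, Bmp6 rose by 1.32 ± 0.24 (adjusted p = 0.000108) and Lefty1 and Lefty2 fell.

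The question of whether the onset needs FOXL2 was addressed by the same comparison in Foxl2-/- ovaries. There the 3 zona genes and Gdf9 rose as well, 4 of 8 probe sets, where 4.06% of all probe sets rose, and 5 of 8 did not overlap, against 40.3%. Zp2 read 1.23, 1.72 and 2.08 at P0, against 0.0940, 0.0859 and 0.0993 at E16, and rose by 4.0 ± 0.58 (adjusted p = 1.10e-05). Zp3 rose by 4.39 ± 1.16 (adjusted p = 0.00805, and 2.49e-06 without array 3 of the KitWvWv ovaries), Zp1 by 2.59 ± 0.55 (adjusted p = 0.00126) and Gdf9 by 3.17 ± 0.33 (adjusted p = 5.25e-08). Oosp1 read 0.0250, 0.00375 and 0.0146 at P0, against 0.0101, 0.0326 and 0.0349 at E16, with no call (-0.57 ± 0.54, adjusted p = 0.490). The difference between the 2 onsets was itself tested, Foxl2-/- minus wild type. It was called for 0 of 8 probe sets, where 0.0333% of all were. The estimates were below 0 for 7 of 8 probe sets and largest in size for Oosp1 (-1.76, 95% interval -3.31 to -0.21, adjusted p = 0.999), Zp3 (-1.50, -4.83 to 1.84) and Zp1 (-1.42, -3.00 to 0.16). These intervals include both no difference and a severalfold weaker onset for Zp1 and Zp3.

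Among the wild-type newborns the 6 genes varied in the same order, with Bmp15 1450210_at as the exception among the probe sets. Array 2 was the highest, array 3 the middle and array 1 the lowest for all 6 genes by their brightest probe sets. Array 2 exceeded array 1 by 4.48 times for Zp3, 4.42 times for Zp1, 4.0 times for Bmp15 1420006_at, 3.75 times for Zp2, 2.60 times for Oosp1 and 2.57 times for Gdf9. Astl and Izumo1r showed the same order, with 0.0951, 0.632 and 0.389 for Astl and 0.154, 0.657 and 0.454 for Izumo1r in arrays 1, 2 and 3. Figla (4.78, 8.89 and 6.57) and Nobox (4.02, 6.51 and 5.09) did so over a narrower range. The germ-cell markers varied less, at 1.25, 1.35 and 1.06 for Ddx4 and 4.06, 5.38 and 4.16 for Dazl. The order is a description of 3 animals, whose exact hour of collection the labels do not give. In the P0 testes and in each double mutant, 4 of the 6 genes, Zp2 included, had the order of Zp2 within their group. The number was 3 in Foxl2-/- ovaries and 2 in KitWvWv and in Wnt4-/- ovaries. The share of all probe sets with the wild-type order was not computed, so a difference between whole arrays was not tested.

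**Figure D4:**
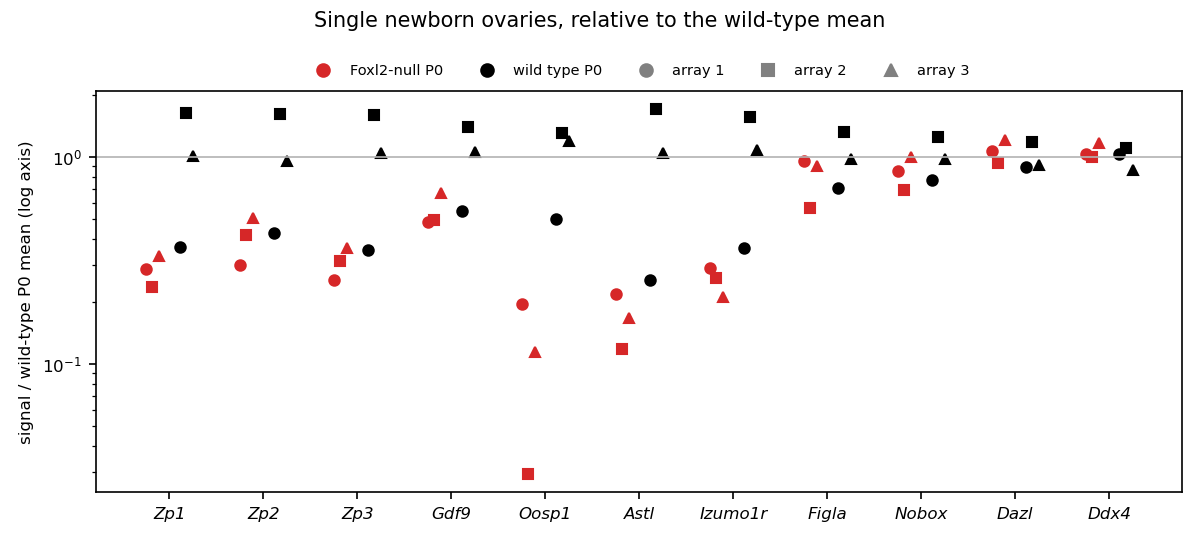
Signal in single Foxl2-null and wild-type ovaries of P0, divided by the wild-type mean of each gene (log axis), with 1 point per array. For the zona genes, Gdf9, Oosp1, Astl and Izumo1r wild-type array 2 is highest and array 1 lowest, and the Foxl2-null arrays lie near or below wild-type array 1, while Dazl and Ddx4 of both genotypes lie close to 1.

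Oosp1 fell in newborn ovaries without Foxl2, and the other 7 probe sets did not pass the threshold. Oosp1 read 0.0250, 0.00375 and 0.0146 in Foxl2-/- ovaries, against 0.0643, 0.167 and 0.152 in wild type. It fell by 2.50 ± 0.54 (log2, SE, n = 3 and 3; adjusted p = 0.0129, and 0.00370 without array 3 of the KitWvWv ovaries), and the groups did not overlap. In this comparison 0.604% of all probe sets were called in either direction and 0.451% fell. The arrays did not overlap for 2 of 8 probe sets, Oosp1 and Zp1, against 11.8% of all probe sets. The call was lost without wild-type array 2 (adjusted p = 0.115), without wild-type array 3 (0.104), without Foxl2-/- array 2 (0.135), and with the arrays of the 2 groups fitted alone (0.0719). Its readings in the Foxl2-/- ovaries overlapped with those of the P0 testes (0.0363, 0.0431 and 0.0232). A lower reading was not confined to birth. At E16 Oosp1 read 0.0101 to 0.0349 in Foxl2-/- and 0.0207 to 0.0264 in Foxl2+/- ovaries, against 0.0383 to 0.0556 in wild type, without a call.

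The zona genes and Gdf9 averaged lower in Foxl2-/- ovaries without a call. Zp1 read 0.169, 0.138 and 0.195 in Foxl2-/- ovaries, below all 3 wild-type arrays (0.215, 0.952 and 0.595), with a difference of -1.53 and a 95% interval of -2.65 to -0.41 (adjusted p = 0.347). For Zp2 the Foxl2-/- mean was 1.68 ± 0.424 and the wild-type mean 4.12 ± 2.44 (SD, n = 3 each), with a difference of -1.13 (-2.30 to 0.04, adjusted p = 0.709). Zp3 averaged 0.856 ± 0.148 in Foxl2-/- and 2.76 ± 1.71 in wild-type ovaries, a difference of -1.44 (-3.80 to 0.91, adjusted p = 0.927). Gdf9 averaged 2.63 ± 0.494 in Foxl2-/- and 4.78 ± 2.06 in wild-type ovaries, a difference of -0.77 (-1.45 to -0.10, adjusted p = 0.545). The spread was on the wild-type side. The Foxl2-/- arrays of Zp2, Zp3 and Gdf9 lay on both sides of wild-type array 1 and below wild-type arrays 2 and 3. Without wild-type array 2, the differences shrank to -0.69 for Zp2, -0.98 for Zp3 and -0.48 for Gdf9. The germ-cell index was 1.32 to 1.80 in Foxl2-/- ovaries, against 1.49 to 1.63 in wild type (difference 0.01, exact permutation p = 0.9).

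Of the genes around the members, few changed in Foxl2-/- ovaries of P0. None of 11 germ-cell markers, 18 meiotic genes or 9 oocyte regulators was called, where 0.825% of all genes were. Of the 6 egg-surface genes only Izumo1r fell, with 0.122, 0.110 and 0.0892 in Foxl2-/- ovaries, against 0.154, 0.657 and 0.454 in wild type (-1.67 ± 0.38, adjusted p = 0.0205), where 0.577% of all genes fell. Astl, at 0.0812, 0.0440 and 0.0617 in Foxl2-/- ovaries, was below all 3 wild-type arrays but not called (-2.08 ± 0.66, adjusted p = 0.208). The convertase gene Pcsk5 fell by 1.02 ± 0.21 (adjusted p = 0.00777). Smad3 read 4.29, 4.07 and 3.74 in Foxl2-/- ovaries, against 8.33, 8.45 and 10.7 in wild type, and fell by 1.17 ± 0.12 (adjusted p = 1.82e-07). It was the 1 gene of 14 receptors and SMADs to change, and none of the 16 granulosa-cell genes known to respond to GDF9 or BMP15 was called.

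Wnt4-/- ovaries of P0 had far less zona and Gdf9 signal than wild type, with Zp2 and Zp3 above the prenatal range in 2 of 3 animals. Zp2 read 0.0416, 0.682 and 0.370 in Wnt4-/- ovaries, against 1.77, 6.64 and 3.96 in wild type. It fell by 3.92 ± 0.58 (adjusted p = 7.64e-06). Zp3 read 0.00980, 0.294 and 0.128 in Wnt4-/- ovaries, against 0.983, 4.40 and 2.89 in wild type, and fell by 4.63 ± 1.16 (adjusted p = 0.00523, and 5.08e-07 without array 3 of the KitWvWv ovaries). Array 1 was below every E16 array for both genes, and array 2 was the highest for both. Gdf9 read 0.220, 0.739 and 0.182 in Wnt4-/- ovaries, so that only array 2 stood above the prenatal range, and fell by 3.80 ± 0.33 (adjusted p = 2.90e-10). Zp1 read 0.0204, 0.0469 and 0.0169, all within the prenatal range, and fell by 3.82 ± 0.55 (adjusted p = 5.79e-06). Oosp1 fell by 1.97 ± 0.54 (adjusted p = 0.0110), and Bmp15 fell by 2.05 ± 0.52 at 1420006_at (adjusted p = 0.00582) and by 1.54 ± 0.44 at 1420005_s_at (adjusted p = 0.0149). In all 7 of 8 probe sets fell, where 7.06% of all probe sets did, and the arrays of the 2 genotypes did not overlap for any of the 8, against 28.9% of all probe sets.

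Several of these calls rested on single arrays. Without wild-type array 2, 4 of 8 were called in Wnt4-/- ovaries, and Bmp15 1420006_at (adjusted p = 0.0823), 1420005_s_at (0.172) and Oosp1 (0.0729) were lost. Oosp1 was also lost without wild-type array 3 (0.0544) or Wnt4-/- array 2 (0.0730), 1420005_s_at without Wnt4-/- array 1 (0.0550) or array 2 (0.0511), and Zp3 without Wnt4-/- array 1 (0.0787). The germ-cell index was -0.81 to 0.11 in Wnt4-/- ovaries, against 1.49 to 1.63 in wild type, and 8 of 11 germ-cell markers fell, where 9.87% of all genes did. Relative to that index the difference from wild type was -2.04 for Zp2, -2.75 for Zp3, -1.94 for Zp1 and -1.91 for Gdf9, with exact permutation p of 0.2 for Zp2 and 0.1 for the others. Of 9 oocyte regulators 5 fell, among them Nobox (-2.57 ± 0.66, adjusted p = 0.00652) and Sohlh1 (-1.94 ± 0.48, adjusted p = 0.00437). Of 6 egg-surface genes 4 fell, led by Izumo1r (-2.14 ± 0.38, adjusted p = 0.000100) and Astl (-2.98 ± 0.66, adjusted p = 0.00157).

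The somatic side of the GDF9 and BMP15 pathway moved differently in Wnt4-/- ovaries. Of the 16 granulosa-cell genes 9 rose and 2 fell, where 7.07% of all genes rose. Inhba rose by 4.68 ± 0.48 (adjusted p = 1.05e-08), Inhbb by 2.33 ± 0.21 (adjusted p = 9.19e-10) and Inha by 1.63 ± 0.33 (adjusted p = 0.000626). These encode the inhibin and activin subunits, which Sertoli cells also make, and Inhbb and Amh of the granulosa list stand in the Sertoli list too, and Star in the Leydig list. Beside this, 6 of 10 Sertoli-cell markers and 4 of 5 Leydig-cell markers rose and 7 of 10 markers of ovarian supporting cells fell, and the mean log2 level of the Sertoli list was 0.07 to 0.47 in Wnt4-/- ovaries, against -1.40 to -0.92 in wild type. The part of these cells in the changes of the granulosa list was not tested. Smad3 fell by 1.57 ± 0.12 (adjusted p = 4.27e-11) and Bmpr1b, a type I receptor, by 1.15 ± 0.30 (adjusted p = 0.00827).

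KitWvWv ovaries of P0 had the lowest germ-cell markers of the single mutants, at an index of -4.24 to -2.35, against 1.49 to 1.63 in wild type, with 11 of 11 markers fallen, where 13.3% of all genes fell. Gdf9 read 0.387, 0.275 and 0.337 in KitWvWv ovaries, in or next to the prenatal range, and fell by 3.71 ± 0.33 against wild type (adjusted p = 2.83e-10). Zp2 read 0.236, 0.217 and 0.732, above the 0.0359 to 0.194 of ovaries of E13 and E16, and fell by 3.38 ± 0.58 (adjusted p = 3.36e-05). Zp1 read 0.0173, 0.0558 and 0.123 and fell by 3.03 ± 0.55 (adjusted p = 8.43e-05). Relative to the germ-cell index, which was far below wild type here, the difference was 1.18 for Zp2 (exact permutation p = 0.3), 1.53 for Zp1 (0.1) and 0.85 for Gdf9 (0.5), and for Zp3 it was 1.42 (0.9), with -0.81, -2.56 and 6.62 in KitWvWv arrays 1, 2 and 3, against -1.50, 0.51 and -0.03 in wild type. The Gdf9 readings, and that of Zp1 in array 1, lay in or next to the range of the testes (0.130 to 0.316 for Gdf9, up to 0.0370 for Zp1). At such low readings a lower index by itself raises the value relative to it. These differences therefore do not show more RNA of a gene in each germ cell. In all 6 of 8 probe sets fell, where 9.87% of all probe sets did, and 6 of 8 did not overlap with wild type, against 39.7%. The remaining calls were Bmp15 1420006_at (-2.31 ± 0.52, adjusted p = 0.00112), Bmp15 1450210_at (-1.39 ± 0.48, adjusted p = 0.0291) and Zp3. The call of 1450210_at was lost without wild-type array 2 (-0.98, adjusted p = 0.197) and without KitWvWv array 2 (-0.89, adjusted p = 0.209), and Bmp15 1420005_s_at, not called with all arrays (-1.01 ± 0.44, adjusted p = 0.0862), passed without wild-type array 1 (-1.33, adjusted p = 0.0409) and after quantile normalization (-1.29, adjusted p = 0.0139).

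Zp3 split the KitWvWv ovaries. It read 0.0201 and 0.0220 in arrays 1 and 2, inside the prenatal and testis range, and 19.2 in array 3, which was 4.37 times the highest wild-type value of 4.40. With all 3 arrays Zp3 fell by 3.14 ± 1.16 (adjusted p = 0.0427), a value that overlapped with wild type and passed the threshold narrowly. Without array 3 it fell by 6.23 ± 0.64 (adjusted p = 8.52e-09), and without array 1 or array 2 the difference was -1.57 (adjusted p = 0.367) or -1.62 (adjusted p = 0.335). Without wild-type array 2 or array 3 it was also not called (adjusted p = 0.156 and 0.104). Array 3 was the highest of the KitWvWv arrays for Oosp1 as well, at 0.0253, 0.0340 and 0.189 in arrays 1, 2 and 3, against 0.0643, 0.167 and 0.152 in wild type. Oosp1 was not called with all arrays (-0.93 ± 0.54, adjusted p = 0.203) and fell without array 3 (-1.71 ± 0.54, adjusted p = 0.0201). Zp2 and Zp1 were highest in array 3 too, and Gdf9, at 0.337, was not.

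Array 3 was compared with all the other arrays over all probe sets, after its Zp3 value had been seen. Zp3 ranked first of 45007 probe sets by its excess over the highest other array (log2 2.12). It was the only probe set of that array with an excess over log2 2, a number that was 0 in 27 arrays and at most 22 in any array. Next came Bcl2l10, a member of the BCL2 family known for its expression in oocytes, followed by Vtn, Psma1, Irak1bp1 and Rbp4. Bcl2l10 read 2.31 in array 3, against 0.113 and 0.0715 in the other KitWvWv arrays and 0.292, 0.770 and 0.573 in wild type. Astl, the ZP2 protease, read 0.0251, 0.0247 and 0.377 in KitWvWv arrays 1, 2 and 3. The germ-cell index of array 3 was -2.35, close to the -2.41 of array 2, and Ddx4 (0.195) and Dazl (0.277) in array 3 were below their wild-type readings. With 1 animal and 1 probe set per gene, what sets this array apart was not tested.

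Around the members, oocyte regulators and egg-surface genes fell in the KitWvWv ovaries. Of 9 oocyte regulators 8 fell, where 13.3% of all genes fell. They were led by Sohlh2 (-4.70 ± 0.56, adjusted p = 8.39e-08), Sohlh1 (-3.72 ± 0.48, adjusted p = 3.24e-07) and Figla (-4.65 ± 0.72, adjusted p = 7.11e-06). Of 6 egg-surface genes 4 fell, led by Izumo1r (-2.02 ± 0.38, adjusted p = 0.000121). Of 14 receptors and SMADs 2 rose, where 17.3% of all genes rose, so this count does not set the list apart. They were Smad1 by 0.42 ± 0.15 (adjusted p = 0.0393) and Smad5 by 0.41 ± 0.16 (adjusted p = 0.0494), and Smad3 was not called. Of 16 granulosa-cell genes 4 rose, where 17.3% of all genes rose, including Fst (1.67 ± 0.33, adjusted p = 0.000219), Kitl (0.97 ± 0.25, adjusted p = 0.00402) and Has2 (1.93 ± 0.57, adjusted p = 0.0110). The mean log2 level of 10 markers of ovarian supporting cells, a list that also holds Fst, was 1.62 to 1.80 in KitWvWv ovaries, against 0.15 to 0.83 in wild type, and 5 of the 10 rose. The part of these cells in the changes of the granulosa list was not tested in KitWvWv ovaries. The median change over all probe sets was 0.28 in this comparison.

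**Figure D5:**
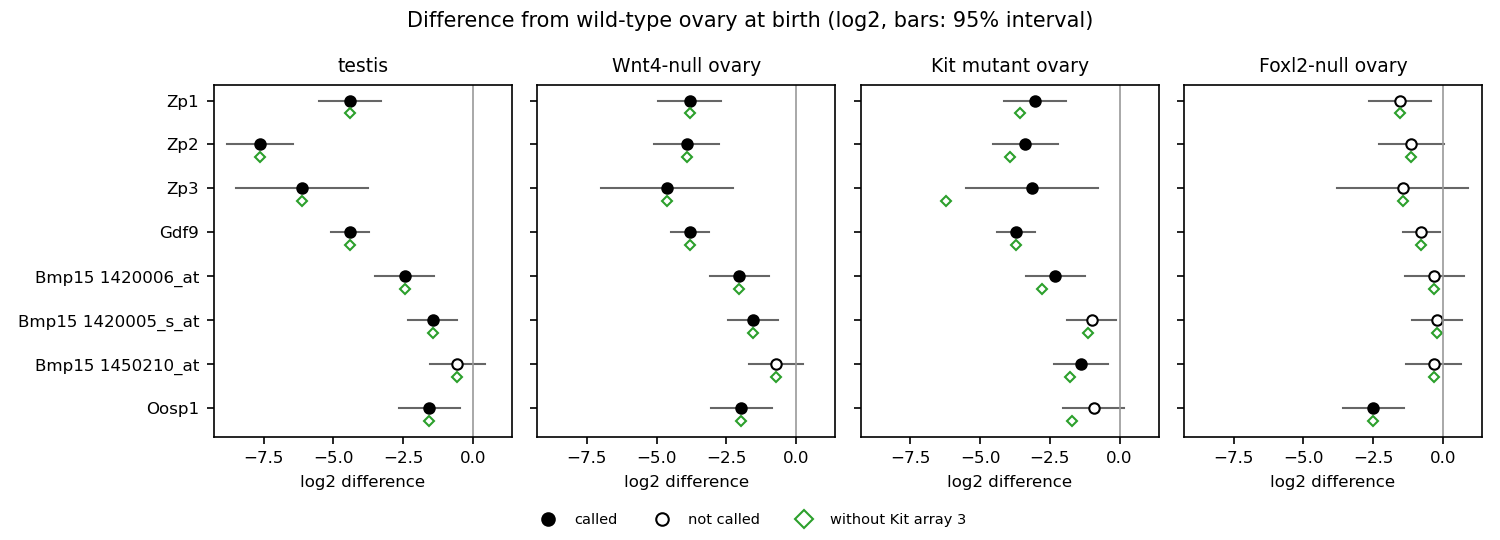
Log2 difference from wild-type ovaries of P0 for the 8 probe sets in testes, Wnt4-null, Kit mutant and Foxl2-null ovaries (circles, filled where called, with 95% intervals), and the same estimate without array 3 of the Kit mutant ovaries (diamonds). In the Foxl2-null ovaries only Oosp1 is filled, and in the Kit mutant ovaries the Zp3 estimate moves to -6.23 without that array.

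Between the 2 single mutants with low germ-cell markers no member was called. Wnt4-/- over KitWvWv ovaries gave 0 of 8 calls, where 21.2% of all probe sets were called. Zp2 averaged 0.365 ± 0.320 in Wnt4-/- and 0.395 ± 0.292 in KitWvWv ovaries (SD, n = 3 each), with a difference of -0.54 (95% interval -1.70 to 0.63) that was 0.01 without array 3 of the KitWvWv ovaries. Gdf9 averaged 0.380 ± 0.311 in Wnt4-/- and 0.333 ± 0.0563 in KitWvWv ovaries, and the difference of their mean log2 values, in which array 2 of the Wnt4-/- ovaries weighs less, had the other sign (-0.08, -0.76 to 0.59). For Zp3 the difference was -1.49 (-3.85 to 0.86), and 1.60 ± 0.64 (adjusted p = 0.0741) without array 3 of the KitWvWv ovaries, so that its sign hung on that array. The germ-cell index was higher in the Wnt4-/- ovaries (-0.81 to 0.11) than in the KitWvWv ovaries (-4.24 to -2.35).

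Loss of the remaining copy of Foxl2 on top of either mutation changed no member beyond the threshold. In Wnt4-/- Foxl2-/- over Wnt4-/- ovaries 0 of 8 probe sets were called, where 0.658% of all were. Zp2 read 0.0740, 0.226 and 0.112 in Wnt4-/- Foxl2-/- ovaries, against 0.0416, 0.682 and 0.370 in Wnt4-/- ovaries, a difference of -0.83 (95% interval -2.0 to 0.34, adjusted p = 0.706). Zp3 read 0.0200, 0.127 and 0.0390 in Wnt4-/- Foxl2-/- ovaries, and Gdf9 read 0.199, 0.229 and 0.250, within its range before birth. In KitWvWv Foxl2-/- over KitWvWv ovaries 0 of 8 were called, where 0.811% of all were. Zp2 read 0.187, 0.104 and 0.158 in KitWvWv Foxl2-/- ovaries, below the 0.236, 0.217 and 0.732 of KitWvWv ovaries, with a difference of -1.15 (-2.32 to 0.02, adjusted p = 0.519) that was -0.60 without array 3. Zp3 read 0.0202, 0.0262 and 0.0158 in KitWvWv Foxl2-/- ovaries, and its difference of -3.12 (adjusted p = 0.279) was -0.03 without array 3 of the KitWvWv ovaries. Oosp1, which fell with Foxl2 loss alone, differed by -0.93 between Wnt4-/- Foxl2-/- and Wnt4-/- ovaries (95% interval -2.03 to 0.17) and by -1.12 between KitWvWv Foxl2-/- and KitWvWv ovaries (-2.21 to -0.02), with no call in either. Without array 3 of the KitWvWv ovaries the second difference was -0.34 ± 0.54. The difference in each mutant background was also compared with that between Foxl2-/- and wild-type ovaries. Here 0 of 8 probe sets were called for Wnt4 (0.273% of all) and 0 of 8 for Kit (0.0178% of all). The single mutants were Foxl2+/- and the wild-type ovaries had both copies. This contrast therefore mixes the background with the number of Foxl2 copies lost, and cannot tell them apart.

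Testes of P0 served as the gonad without oocytes. Against wild-type ovaries 7 of 8 probe sets were lower and called, where 12% of all probe sets fell, and only Bmp15 1450210_at was not (-0.55 ± 0.48, adjusted p = 0.421). Zp2 read 7.63e-05, 0.0126 and 0.0167 in testes of P0, a difference of -7.63 ± 0.58 (adjusted p = 2.48e-12), and below every reading of 0.0884 to 0.0988 in testes of E13. Zp3 differed by -6.12 ± 1.16 (adjusted p = 0.000131), Gdf9 by -4.40 ± 0.33 (adjusted p = 2.48e-12) and Zp1 by -4.40 ± 0.55 (adjusted p = 1.37e-07). Oosp1 differed by only -1.57 ± 0.54 (adjusted p = 0.0296), a call lost without testis array 1 (0.0557) or 3 (0.108) or wild-type array 2 (0.127) or 3 (0.102), and Bmp15 1420005_s_at was lost without testis array 1 (0.0656) or wild-type array 2 (0.144). Before birth no member was called in any comparison of mutant or testis with control. This covers Foxl2-/- at E13 (2.06% of all probe sets called) and at E16 (0.407%), Foxl2+/- at E16 (0.00667%), Wnt4 ko at E15 (1.73%) and testes at E13 (6.2%).

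The genes with the most similar pattern over the 15 group means of log2 level were listed for each member, by Pearson's r between brightest probe sets and as a description only, since the means share arrays and most of their spread is the step at birth. For Zp2 they were Trim75 (0.97), Nlrp5 (0.95), Unc13c (0.95), Asgr2 (0.95) and H1f8 (0.95). For Zp3 they were Padi6 (0.96), Sycp2l (0.96), Nlrp14 (0.95), Fbxw24 (0.95) and Ccno (0.94). For Gdf9 they were Omt2a (0.98), Samd7 (0.97), Mtmr14 (0.96), Rnf8 (0.96) and Fbxw24 (0.96). For Zp1 they were Gm9999 (0.96), Omt2a (0.96), 5730403I07Rik (0.96), Gdf9 itself (0.95) and Myot (0.95). Nlrp5, Nlrp14, Padi6 and H1f8 are known as oocyte-expressed genes. Without array 3 of the KitWvWv ovaries, 2 of the 5 genes of Zp3 and 3 of the 5 of Zp2 stayed in the list.

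Among the members themselves, Zp1 and Gdf9 ran closest (r = 0.95), followed by Zp1 and Zp3 (0.94) and Zp2 and Zp3 (0.93). Without array 3 of the KitWvWv ovaries, Zp3 and Gdf9 (0.93) stood above Zp2 and Zp3 (0.91). Zp2 and Gdf9 reached 0.82, and of the members only Zp2 was above its range in ovaries of E13 and E16 in every KitWvWv array. Bmp15 and Oosp1 followed the others loosely. The nearest genes of Bmp15 1420006_at were Aktip (0.87) and Hsdl2 (0.86), with Gdf9 at 0.73 and Zp2 at 0.56, and those of Oosp1 were Ppp3r2 (0.85) and C130026I21Rik (0.81), with Zp3 at 0.52, Zp2 at 0.48 and Bmp15 at 0.10.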

How the data were processed

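RNA of 43 single mouse gonads had been extracted with MELT (Ambion), amplified linearly with Pico Ovation (Nugen) and hybridised to Affymetrix MOE430 v.2 arrays. The deposited values are linear intensities, which the authors computed by plier (R) and then brought to one global mean. GCOS 1.3 is named in the submitters' processing notes, and a genome build is not given in the sources used here. Each intensity was divided by the common mean, 0.01 was added and log2 taken. After 64 control probe sets were left out, 45007 were fitted with limma 3.58.1 (R 4.3.3) in 1 model of 15 group means, with trended empirical Bayes variances, two-sided tests and p-values adjusted by Benjamini-Hochberg across every probe set. The spread is that between single animals.

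A probe set was named where the platform annotation gives 1 symbol (34927, with 930 giving several and 9150 none). The rule for named genes took the 6 members, up to 4 genes of each list with the lowest adjusted p in a comparison, and the 5 genes nearest to each member by Pearson's r. Other genes in the text, such as Figla, Bcl2l10, Ddx4 and Dazl, were added after their values were seen. The members, gene lists and tests were chosen with earlier results of these data known. Lists use each gene's brightest probe set. The list of oocyte regulators also holds Gata4, and that of egg-surface genes holds Ovgp1. Both are part of the counts given, and whether their signal came from oocytes was not tested. Of the lists for other cells at birth, 4 of 10 ovarian support markers fell, where 20.7% of all genes fell. Of the Sertoli markers 1 of 10 rose and of the Leydig markers 1 of 5, where 10.2% of all genes rose. The fit was checked on simulated data. Leaving out array 3 of the KitWvWv ovaries was chosen after seeing the data.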

Additional observations from a re-analysis of the deposited data

How the results depend on the processing

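The alternatives were pseudocounts of 0.1% and 5% of the mean, quantile normalization, a filter on dim probe sets, variances without trend, the compared arrays alone, the replicate number as a block, leaving out each array, and leaving out KitWvWv array 3. No estimate changed direction in a called result. For Foxl2-/- over wild type at P0, 1 probe set was called, against 0 with the 0.1% pseudocount, the filter or the compared arrays alone, 2 with the 5% pseudocount, where Zp1 passed (-1.36, adjusted p = 0.0223), and 0 to 1 without single arrays. For Wnt4-/- over wild type at P0, 7 were called, against 4 with the filter and 4 to 7 without single arrays. For testes over wild-type ovaries at P0, 7 were called, against 4 with the filter, which removes dim probe sets from the test. The cause of the other changes was not tested. With the 0.1% pseudocount Oosp1 lost its calls in Foxl2-/- (adjusted p = 0.125), Wnt4-/- (0.102) and testis (0.165) against wild type at P0, and Bmp15 1450210_at its call at birth (0.0781). Zp3 in KitWvWv ovaries lost its call under both pseudocounts, quantile normalization, no trend and the compared arrays alone (limma, adjusted p 0.0504 to 0.281). Oosp1 passed at birth with the 5% pseudocount (0.0216), quantile normalization (0.0269) and the compared arrays alone (0.0306). Quantile normalization also called Bmp15 1420006_at at birth in wild type (1.3, 0.0468), which made 7 of 8, 1420005_s_at at birth in Foxl2-/- (1.29, 0.0236) and 1420005_s_at in KitWvWv ovaries (-1.29, 0.0139), and the 5% pseudocount called it there too (0.0495). With the replicate block the counts were 5 at birth in wild type, 4 in Foxl2-/- and, against wild type at P0, 1 for Foxl2-/-, 7 for Wnt4-/-, 6 for KitWvWv and 7 for testes, as without it. Same-numbered arrays correlated above 0.1 in every pair only for Foxl2-/- and control ovaries of E13 (0.132 to 0.158), where the count was 0 with and without the block. Single pairs of other comparisons reached up to 0.196, for Foxl2+/- and wild-type ovaries of E16. Whether arrays of the same number shared a litter or a batch was not tested. Readings below 0.01 are under the pseudocount, where a log2 difference depends on it. Of 22 arrays before birth this held in 4 for Zp3, 3 for Zp2, 3 for Oosp1 and 1 for Zp1, those of Zp3, Zp2 and Zp1 all at E15, and of 6 testes in 1 for Zp2 and 1 for Zp1. It also held for Bmp15 1450210_at in wild-type array 1 of E16 (0.00301), a reading behind its call at birth. At P0 it held for Oosp1 in Foxl2-/- array 2 (0.00375), Zp3 in Wnt4-/- array 1 (0.00980) and 1450210_at in KitWvWv array 2 (0.00130). Some readings of Zp1, Bmp15 and Oosp1 in the double mutants were below 0.01 too.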
